A study of Mus musculus with 14 samples.

Results

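Ccdc43 encodes a small protein named for its coiled-coil domain, and it is read here on spotted cDNA arrays from the brain and the thymus of mice that lack miR-34a. It was chosen from these data because its ratio of mutant over control lay below 0 in brain and above 0 in thymus, so those ratios are given as a description and carry no test. It is 1 of the 1380 genes that could be named on the array, where 1453 of 20160 probes carry a name, and it has 1 probe, printed as 1 spot at block 37, row 7, column 18. On each of the 14 arrays RNA of 1 male mir-34a minus mouse of 17 weeks, on the C57BL/6 background, was hybridised against a pool of RNA of the same organ from male control mice of the same age and background. Brain came from mice 1 to 3 on 6 arrays and thymus from mice 1 to 4 on 8 arrays, with the dyes swapped between the arrays of a mouse. The labels list 4 animals in each pool, while the labelling protocol speaks of 6. The loss of miR-34a could not be checked, since 0 probes were named Mir34a, and the labels used here do not say how the allele was made.

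The molecular function of Ccdc43 is little characterised. In human gastric cancer cells it has been linked to proliferation and invasion. MicroRNAs such as miR-34a, which the tumour suppressor p53 induces, pair through their seed with matching sites in messenger RNAs and lower the output of those messengers.

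The missing microRNA is shown because its seed defines the sites it can pair with, and the promoter because the organs differed in the Ccdc43 level. In the 2 mature strands of miR-34a, from RefSeq on GRCm38.p6, capitals mark the seed, bases 2 to 8. In the promoter window, the minus strand of chr11:102697676-102697975 on the same build, capitals mark the letters GCATGCGC. The window runs from 250 bases before to 50 bases after the start site used in the RefSeq promoter table, which lies inside the bounds of the gene record, downstream of its outermost 5′ end.
mmu-miR-34a-5p: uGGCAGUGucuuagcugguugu
mmu-miR-34a-3p: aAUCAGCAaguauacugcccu
Ccdc43 promoter: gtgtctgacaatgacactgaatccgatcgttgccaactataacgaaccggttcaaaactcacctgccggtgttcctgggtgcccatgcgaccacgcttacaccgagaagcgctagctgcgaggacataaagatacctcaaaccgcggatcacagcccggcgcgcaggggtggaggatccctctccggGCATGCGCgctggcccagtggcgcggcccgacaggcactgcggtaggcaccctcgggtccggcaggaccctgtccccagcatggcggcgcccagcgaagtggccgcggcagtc

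The 2 strands of miR-34a carry different seeds. The promoter window was searched for 6 strings of letters, on both strands for all but CACTGCC. That string was searched on the printed strand only, and its share of windows likewise counts that strand only. GCATGCGC, which forms part of the motif of the nuclear respiratory factor NRF1, occurred 1 time, at bases 188 to 195 of the window, and 2.71% of the 32851 windows in the table hold it. CANNTG, the E-box, also occurred 1 time, against 72.3% of windows that hold it. TATAAA (the TATA box, held by 13.6% of windows), CCAAT (37.4%), GGGCGG (the GC box, 35.7%) and CACTGCC (the DNA match to the seed of the 5p strand, 3.25%) were not found in these 300 letters. The window holds 29 CG dinucleotides, against a median of 7 over all windows, and 64.7% of its bases are G or C, against a median of 52.7%. Of all windows, 87.1% hold fewer CG dinucleotides. The sites that a microRNA would use lie in the transcript, which was not searched here.

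The Ccdc43 spot gave a higher intensity on every brain array than on any thymus array, before any scaling between arrays. Within its own array the spot stood at the 99.4th to 99.7th percentile of spot intensity in brain. In thymus it stood at the 79.8th to 97.8th percentile (median 96.9), so it was among the brighter spots there too. In brain replicates 1 to 6 the foreground intensity of the mutant channel was 934, 1170, 614, 1027, 1124 and 1909, and that of the pool channel was 1981, 722, 1137, 592, 2298 and 924. In thymus replicates 1 to 8 the mutant channel gave 137, 167, 186, 353, 348, 246, 224 and 562, and the pool channel gave 154, 117, 272, 165, 190, 325, 422 and 238. The lowest brain intensity, 592, lay above the highest thymus intensity, 562. The foreground was 5.90 to 28.1 times the local background in the mutant channel of brain arrays (median 12.3) and 6.17 to 29.8 times in their pool channel (median 11.6). In thymus it was 1.61 to 4.82 times in the mutant channel (median 2.54) and 1.51 to 2.83 times in the pool channel (median 2.20). The thymus ratios therefore rest on signals close to background, from 1.30 background SDs above it in the pool channel of replicate 1 and 1.40 in the mutant channel of replicate 2. The spot had no flag and 0 saturated pixels on all 14 arrays, and its recorded diameter was 120 to 130 in brain and 80 to 120 in thymus.

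**Figure D1:**
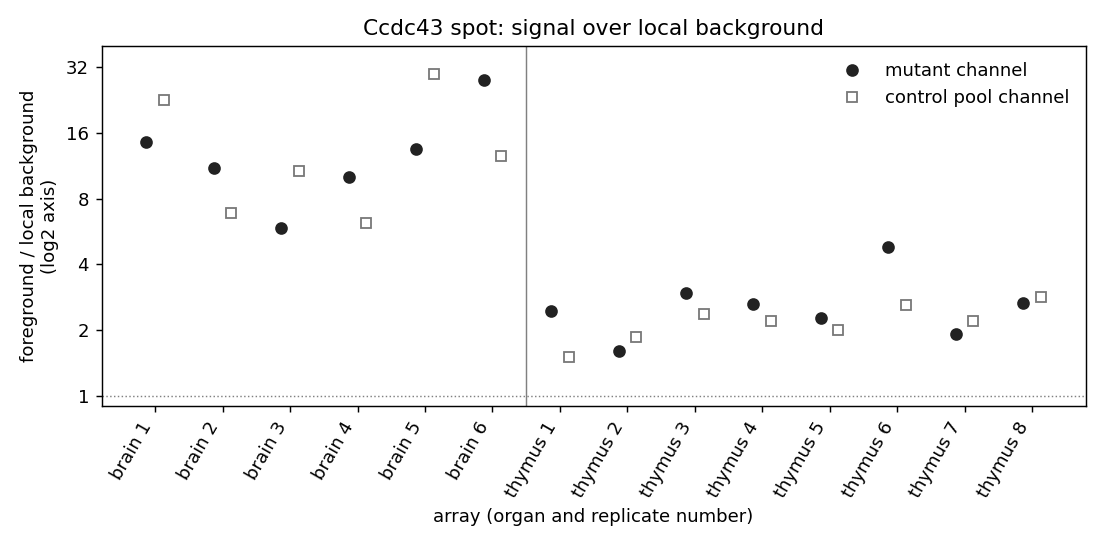
Foreground over local background of the Ccdc43 spot (log2 axis) on each array, with filled circles for the mutant channel and open squares for the control pool channel. All brain points lie at or above 5.90, and all thymus points lie at or below 4.82.

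Before any normalisation the red channel (Cy5) exceeded the green (Cy3) on every brain array, with a background-subtracted ratio of 1.72 to 2.18 whichever dye carried the mutant RNA. In thymus the same ratio was 0.642 to 2.43. Averaged over the dye-swapped arrays of a mouse, the background-subtracted log2 ratio of mutant over pool, before normalisation, was -0.17, -0.06 and 0.01 in the brain of mice 1 to 3. In the thymus of mice 1 to 4 it was 0.43, 0.47, 0.50 and 0.04. On this scale 2 of the 3 brains lay below 0 and 4 of the 4 thymuses above it.

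After background correction and loess normalisation within each array, the log2 ratio of mutant over pool was -0.11, -0.23, -0.12, -0.23, 0.03 and -0.07 in brain replicates 1 to 6. In thymus replicates 1 to 8 it was 0.06, 0.29, 0.13, 0.19, 0.24, 0.28, 0.08 and 0.29. The ratio lay below 0 on 5 of 6 brain arrays, replicate 5 being the exception, and above 0 on 8 of 8 thymus arrays. The arrays of the 2 organs did not overlap, but the gene was chosen for this contrast, so that is a description only. Per mouse, the brain ratios were -0.17, -0.17 and -0.02 for mice 1 to 3, with a mean of -0.12 ± 0.09 (SD, n = 3), or 0.919-fold. The thymus ratios were 0.17, 0.16, 0.26 and 0.19 for mice 1 to 4, with a mean of 0.20 ± 0.05 (SD, n = 4), or 1.15-fold. Brain mouse 3 lay close to 0 while brain mice 1 and 2 lay together. Each organ has a single pool, and the spread among control mice is therefore not in these SDs.

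**Figure D2:**
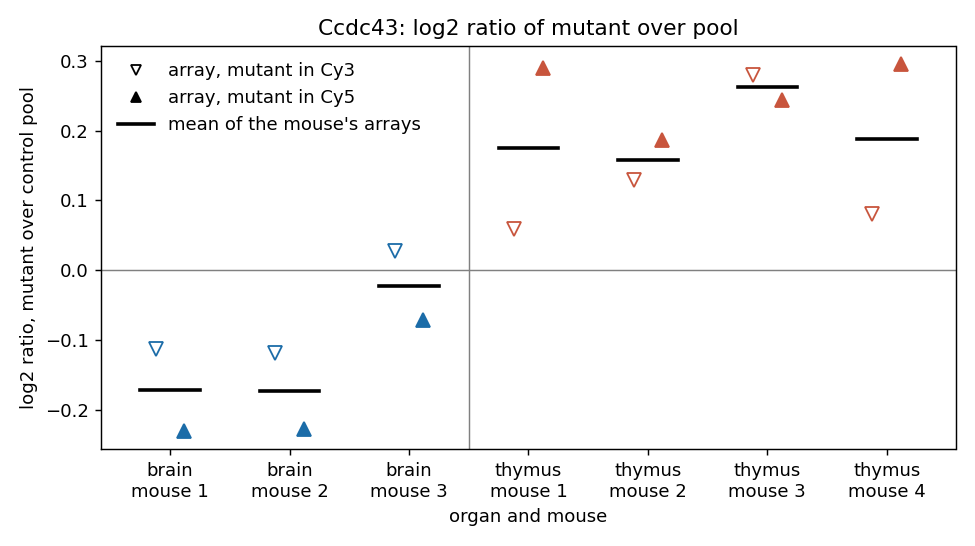
Log2 ratio of mutant over control pool for Ccdc43 by organ and mouse, with open triangles for arrays with the mutant in Cy3, filled triangles for arrays with the mutant in Cy5 and a black line at the mean of each mouse. The 3 brain means lie from -0.17 to -0.02 and the 4 thymus means from 0.16 to 0.26.

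The dye orientations gave ratios of different size and the same sign of the mean. With the mutant in Cy3 the mean log2 ratio was -0.07 ± 0.08 in brain (SD, n = 3), against 0.14 ± 0.10 in thymus (SD, n = 4). With the mutant in Cy5 it was -0.18 ± 0.09 in brain and 0.25 ± 0.05 in thymus. The Cy5 orientation thus lay lower in brain in all 3 mice (Cy5 minus Cy3, -0.11 ± 0.01) and higher in thymus on average (0.12 ± 0.13), and the swap cancels this in the mouse means. The brain minus thymus difference of the ratio was -0.32. Within the 3 mice that gave both organs it was -0.35, -0.33 and -0.28, with a mean of -0.32 ± 0.03 (SD, n = 3).

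Many other probes had larger ratios than Ccdc43. Of the 17591 probes tested in brain, 7.05% had a lower mean ratio, and of the 5422 tested in thymus, 5.72% had a higher one. Of the 5255 probes with a difference between the organs, 2.93% had a lower one, which put Ccdc43 at position 155 from the lowest. Among the 402 of these that carry a gene name it stood at position 11. Just before it came Polr1c, a subunit shared by RNA polymerases I and III, at -0.32 (0.01 in brain and 0.34 in thymus). Just after it came Fnbp4, a formin-binding protein, at -0.29 (-0.04 in brain and 0.25 in thymus). The signs by themselves were shared with other probes. Of the 1856 probes with a value in all 7 mouse samples, 37 (1.99%) lay below 0 in all brains and above 0 in all thymuses, and 29 (1.56%) did the opposite. Of the 145 named ones, 2 lay below 0 in all brains and above 0 in all thymuses, Ccdc43 and Zkscan2.

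No probe on the array passed the test of the ratio in either organ. With limma and Benjamini-Hochberg adjustment, 0 of 17591 probes (0%) passed in brain, with 783 at an unadjusted p under 0.05. In thymus 0 of 5422 (0%) passed, with 273 unadjusted, and for the difference between organs 0 of 5255 (0%) passed, with 365 unadjusted. The smallest adjusted p-values were 0.845 in brain, 0.850 in thymus and 0.688 for the difference.

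The surroundings of the spot were read on the same arrays. The 100 probes nearest to Ccdc43 in intensity had a median log2 ratio of -0.08 to 0.09 across brain arrays and -0.07 to 0.05 across thymus arrays. Within them, Ccdc43 stood at the 19th to 55th percentile in brain and at the 60th to 93rd in thymus. The SD of the ratio over those 100 probes was 0.67 to 1.72 in brain and 0.29 to 0.65 in thymus, wider than the Ccdc43 ratios themselves. With the median of those probes taken off, the mean ratio was -0.12 in brain and 0.20 in thymus. The median ratio of the print block was -0.08 to 0.09 in brain and -0.05 to 0.08 in thymus. Of the 8 spots next to Ccdc43, 7 to 8 were without a flag in brain and 3 to 7 in thymus, with a median ratio of -0.13 to 0.10 in brain and -0.14 to 0.16 in thymus.

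**Figure D3:**
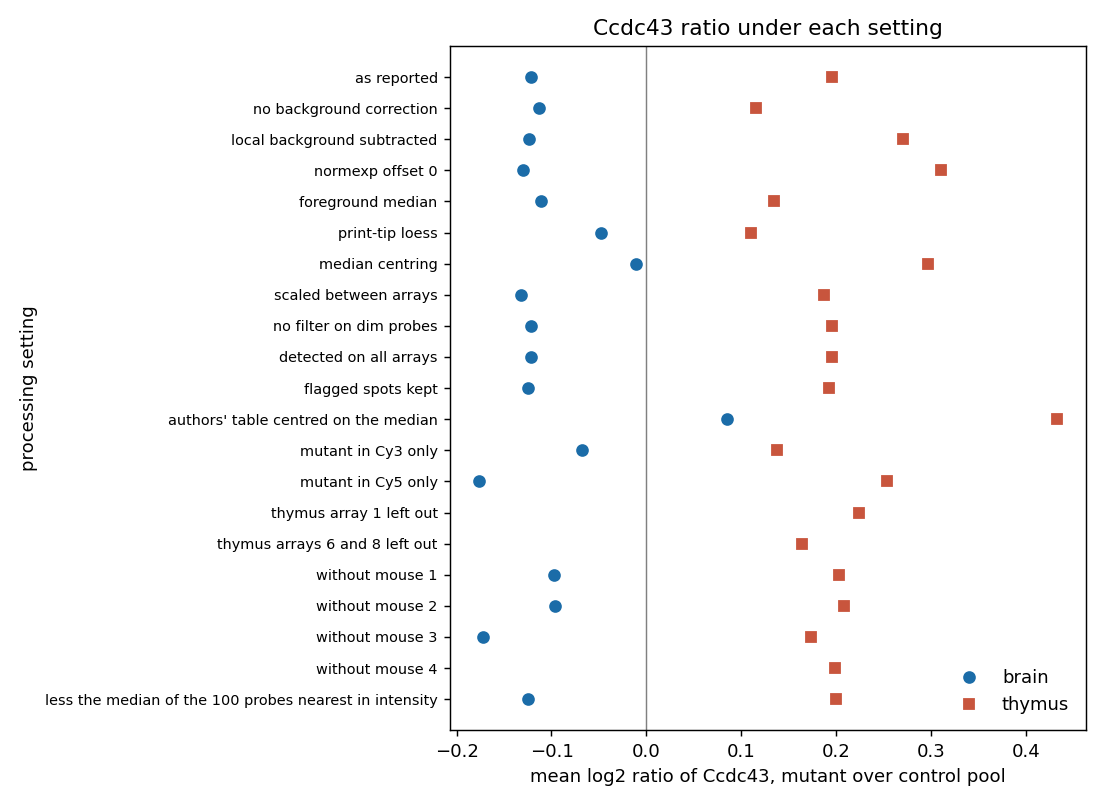
Mean log2 ratio of mutant over control pool for Ccdc43 under each processing setting, with circles for brain and squares for thymus. Thymus lies above 0 under every setting drawn, while brain is at -0.01 with median centring and at 0.08 in the authors' deposited table.

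The mean brain ratio moved in size with the normalisation and stayed below 0 under each one run on the scanner files. It was -0.05 ± 0.07 with loess per print tip and -0.01 ± 0.07 when arrays were only centred on their median (SD, n = 3). With loess it was -0.12 ± 0.09. In the first 2 the SD was larger than the size of the mean, so the mean does not give the sign in each brain. In the authors' deposited table, centred on the median, the mean brain ratio was 0.08. That table also differs in background correction and foreground statistic, and the cause of the change in sign was not tested. In thymus the sign held, while the size ran from 0.11 with loess per print tip to 0.43 in the authors' deposited table.

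The level of Ccdc43, which is the mean log2 intensity of both channels after normalisation between arrays, differed far more between the organs than the ratio did. It was 9.99, 9.36 and 10.20 in the brain of mice 1 to 3 (9.85 ± 0.44, SD, n = 3) and 7.48, 7.86, 7.48 and 7.42 in the thymus of mice 1 to 4 (7.56 ± 0.20, SD, n = 4). The groups did not overlap. The level was 2.29 higher in brain on the log2 scale (SE 0.21, 95% interval 1.81 to 2.76), or 4.88-fold (3.51 to 6.80), with an adjusted p of 0.00155 by limma over 8384 probes. Every level includes the pool channel, a single RNA sample per organ, so the SE, interval and p rest on a spread that is only partly among animals. The spread among control mice is not in it. Within mice 1, 2 and 3 brain lay 5.68-fold, 2.83-fold and 6.58-fold higher. The gene was chosen by its ratio. The level comes from the same spot intensities, so the level test cannot be taken as independent of that choice. Each organ was hybridised on its own arrays, so organ and array cannot be told apart in a level, and in whole tissue fewer cells that express a gene cannot be told apart from less RNA per cell.

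The channels were also read apart. In the mutant channel, the only one whose RNA differs from mouse to mouse, the level averaged 9.79 ± 0.47 over the 3 brains and 7.66 ± 0.19 over the 4 thymuses (SD), a difference of 2.13 (limma adjusted p = 0.00323). In the pool channel each organ has a single RNA sample read on several arrays, so no test between the organs is given for it. The pool's level averaged 9.91 on the brain arrays and 7.46 on the thymus arrays, a difference of 2.45, and its spread over mouse values (SD 0.41 and 0.21) is technical.

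By this test 138 of 8384 probes (1.65%) differed in level between the organs, 67 higher in brain (0.799%) and 71 higher in thymus (0.847%), with 1697 at an unadjusted p under 0.05. With the mouse as a replicate block 24 probes passed, and Ccdc43 remained among them at 2.24 (limma adjusted p = 0.0267). The median difference over all probes was -0.15, and 32.8% of probes lay above 0. Against that shift Ccdc43 ranked 6 from the highest of 8384 in brain. None of the 5 above it carries a gene symbol here, so it stood first of the 606 named probes tested. The test needed values from at least 2 mice of each organ, while detection in either organ sufficed. A probe could thus enter through the organ where it is bright. With detection required on all arrays, 77 probes passed and Ccdc43 ranked 5. Of 13 brain marker probes, 5 could enter this ranking. Syt1, Camk2b and Zic1 had no mouse value in thymus. Nsf, Slc1a6, Tppp, Syp and another Stmn2 probe had a value in only 1 thymus mouse. Of the named probes 3 were called higher in brain and 6 higher in thymus. Beside Ccdc43 the other brain genes were Stmn2, a neuronal regulator of microtubules, at 1.62 (8.47 ± 0.30 in brain against 6.85 ± 0.09 in thymus, limma adjusted p = 0.00263), and Ttc3, a ubiquitin ligase, at 1.19 (8.02 ± 0.29 and 6.83 ± 0.20, limma adjusted p = 0.0463), which was chosen after its values were seen.

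**Figure D4:**
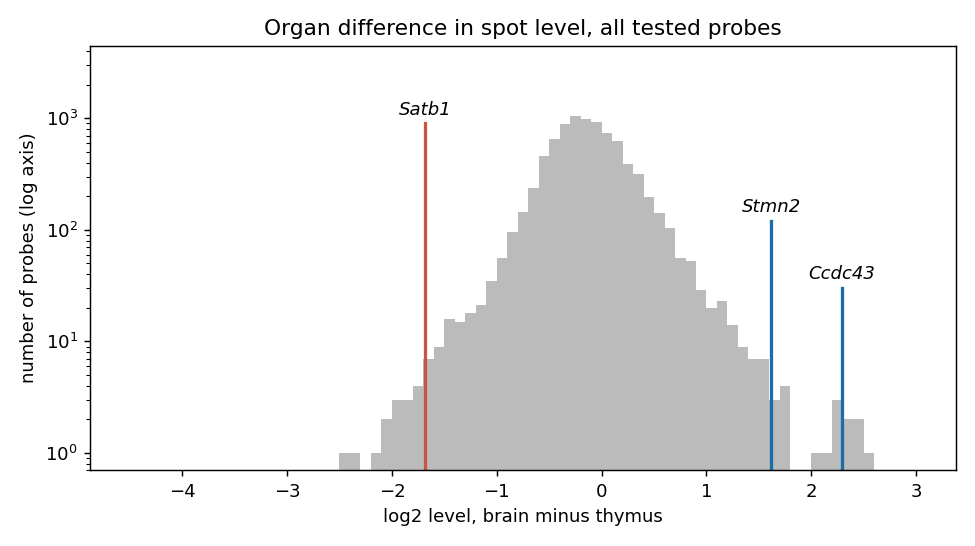
Number of tested probes (log axis) by difference in log2 level, brain minus thymus, with lines at Ccdc43, Stmn2 and Satb1. Ccdc43 lies at 2.29, among the few probes at the right edge, Stmn2 at 1.62 and Satb1 at -1.68.

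The labelled organs were checked against their markers. Satb1, which organises chromatin in thymocytes, averaged 6.73 ± 0.04 in brain and 8.42 ± 0.46 in thymus (difference -1.68, limma adjusted p = 0.00902). Of 5 brain marker probes with a level test, 2 lay higher in brain and 3 lower, and 1, Stmn2, passed. The 3 thymocyte markers tested all lay lower in brain and 1, Satb1, passed, with Cd8a, a coreceptor of cytotoxic T cells, at -0.98 (limma adjusted p = 0.0635). Blood markers have 0 probes here. On thymus replicate 6 the Satb1 level was 6.90, close to the 6.49 to 6.89 of the brain arrays, against 8.47 to 8.83 on the other 7 thymus arrays, while its Stmn2 level was 6.43. The Ccdc43 level there was 7.18 and its ratio 0.28. With thymus replicates 6 and 8 left out the mean thymus ratio of Ccdc43 was 0.16 and the level difference 2.36 (limma adjusted p = 0.00732). Thymus replicate 1 carries the tissue brain in 1 label field, but had Satb1 at 8.72 and Stmn2 at 6.95. Without it the thymus ratio was 0.22 and the level difference 2.35 (limma adjusted p = 0.00275). The flagged share of spots ran from 0.812% to 10.7% in brain and from 9.32% to 72.4% in thymus, and the share of probes detected was 56.3% to 94.4% and 7.96% to 85.4%. The part of these array differences in the Ccdc43 level was not tested.

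The genes with the most similar ratio were sought among 144 other named probes with a value in all 7 mouse samples, by Pearson's r with Ccdc43. These 7 points come from 2 organs and 4 mice and share 1 pool per organ, so r is a description. It ran from -0.940 to 0.799, with a median of -0.113. Highest were Calml3, a calmodulin-like protein (r = 0.799), Zkscan2, a zinc finger protein (0.797), Gmnn, which is geminin and restrains DNA replication licensing (0.727), Mbd2, which binds methylated CpG (0.722), Cdkl3, a kinase related to cyclin-dependent kinases (0.701), and Trim54, a muscle RING finger protein (0.699). Over the 14 single arrays r was 0.287 for Calml3, 0.128 for Zkscan2, 0.531 for Gmnn, 0.533 for Mbd2, 0.309 for Cdkl3 and 0.688 for Trim54, and 3 of the 6 stood among the first 6 by that order as well.

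The ratios of these genes were smaller than those of Ccdc43 or more scattered. Calml3 averaged -0.06 ± 0.02 in brain and 0.04 ± 0.05 in thymus, and Zkscan2 averaged -0.08 ± 0.02 and 0.10 ± 0.05 (SD over 3 brains and 4 thymuses). Gmnn averaged -0.12 ± 0.23 in brain and 0.06 ± 0.02 in thymus, and Trim54 averaged -0.10 ± 0.11 and 0.12 ± 0.17. None of them passed the limma test in either organ. The lowest r belonged to Fkbp3, an FK506-binding prolyl isomerase (r = -0.940), with 0.17 ± 0.02 in brain and 0.00 ± 0.06 in thymus. Ddx5, a DEAD-box RNA helicase (r = -0.906), averaged 0.12 ± 0.02 in brain and -0.04 ± 0.03 in thymus. Fcgr2b, the inhibitory receptor for immunoglobulin G (r = -0.830), averaged 0.24 ± 0.04 and 0.16 ± 0.04.

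**Figure D5:**
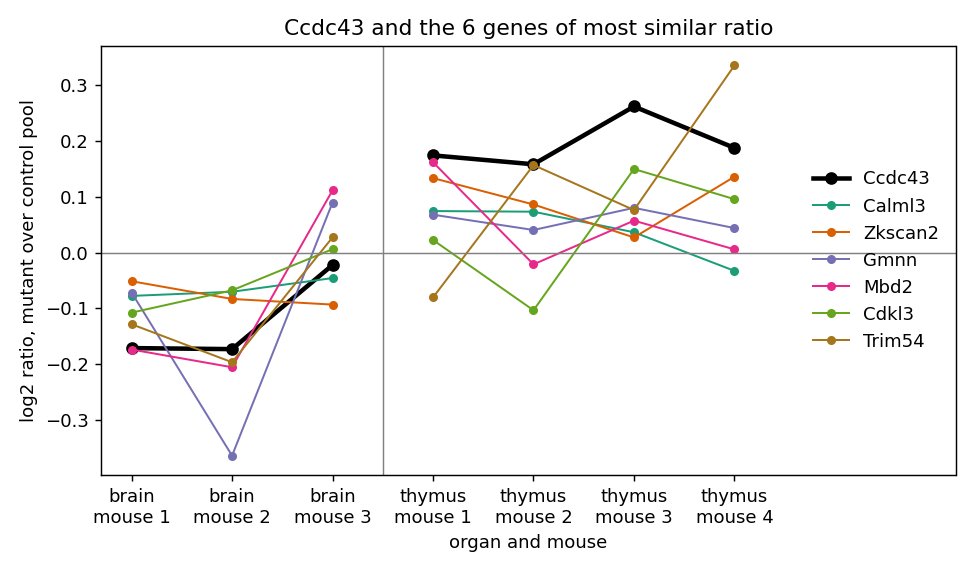
Log2 ratio of mutant over control pool by organ and mouse for Ccdc43 (thick black line) and the 6 genes with the highest r. Calml3 and Zkscan2 stay closer to 0 than Ccdc43 in brain mice 1 and 2, while Gmnn reaches -0.36 in brain mouse 2 and Trim54 0.34 in thymus mouse 4.

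The other genes listed for Ccdc43 were those that share its name stem, its neighbours on the chromosome, and 2 general sets, proteasome and proliferation genes. Since 0% of all probes passed the limma test of the ratio in either organ, the 0 calls in these lists say nothing particular to them, and their values are given as a description. Of 140 genes named Ccdc, 7 have a probe. In brain 4 were tested, 1 above 0 and 3 below (median -0.02), and in thymus 1, which lay below 0, beside 50.5% of all probes above 0 in brain and 49.0% in thymus. Ccdc54 averaged -0.10 ± 0.15 in brain, and Ccdc191 averaged -0.01 ± 0.13 in brain and -0.16 ± 0.31 in thymus (SD, n = 3 each). The level of Ccdc191 was 6.55 ± 0.36 in brain and 7.09 ± 0.06 in thymus (limma adjusted p = 0.194). Of the 20 nearest genes on chromosome 11, 1 has a probe, Adam11, a membrane protein of the ADAM family without protease activity. It averaged -0.01 ± 0.16 in brain (n = 3) and -0.02 ± 0.01 in thymus (n = 2).

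Of 39 proteasome genes, 1 has a probe, Psmd14, the deubiquitinase of the proteasome lid, which averaged 0.07 ± 0.08 in brain, against -0.01 ± 0.05 in thymus (SD, n = 3 each). Of 25 proliferation genes, 2 have a probe. Cdt1, the licensing factor that geminin binds, averaged -0.10 ± 0.09 in brain, and both Cdt1 and Gmnn lay below 0 there (median -0.11). Gmnn, the only one of the pair tested in thymus, lay above 0 there at 0.06 ± 0.02 (SD, n = 4).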

How the data were processed

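Total RNA of each organ was labelled with Cy3 or Cy5, 20 µg per mutant sample, and mixed with the pool in the other dye, per the labels. The scanner files deposited by the authors hold foreground and local background intensity per spot at both wavelengths, not normalised, and the share of saturated pixels as a percent, per the file headers. Flag and spot geometry come with them. The image software is not given in the sources used here. A value table deposited by the authors is treated as a score and serves as an alternative. Compared by column with the scanner files, 99.7% to 99.9% of rows match, within 0.01, a constant plus the log2 of mutant over pool from background-subtracted medians. Column medians run from -1.38 to 0.865, some values exceed 100, and the origin of the constant is unknown.

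Normexp (offset 50) corrected the foreground means, and loess (span 0.3) normalised each array, in limma 3.58.1 under R 4.3.3, with flagged spots at weight 0. Ratios were turned to mutant over pool and averaged per mouse over its dye swap. Levels were normalised with Aquantile. A probe was tested where at least a share of 0.5 of arrays lay 2 background SDs above background, with values from at least 2 mice. Mouse values were tested with lmFit and eBayes, adjusted by Benjamini-Hochberg across every tested probe, at 0.05. Signs flipped over 3 or 4 mice alone could give no p below 0.25 or 0.125. The number of arrays limits the precision.

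Mice 1 to 3 gave both organs, so the block pairs by animal. Their deviations correlated at r from -0.01 to 0.01 for ratios and from -0.14 to 0.06 for levels. The labels tie each array to a mouse, and arrays of a mouse count as 1 replicate. No arrays held identical values. For mice 3 and 4 the file names swap digits of the labelled identifier, and the label was followed. Probes were named by RefSeq accession (961) or unique synonym (492) in a table of GRCm38.p6.

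Ccdc43, the gene lists and the tests were chosen with earlier results of these data known. Named genes were the 6 with the highest and the 3 with the lowest r with Ccdc43 over the mouse ratios, its neighbours in the named order, and list members. Alternatives were background correction, normalisation, dim-probe filter, flags, foreground statistic, dye orientation, single arrays or mice left out, block and the authors' table. The offset draws ratios of dim spots toward 0. The procedures were tested on the scanner values with known changes put into a random set of probes, and the recovery is not given here.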

Additional observations from a re-analysis of the deposited data

Results flagged for a closer look

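The level of Ccdc43 in the thymus of mouse 2 was 7.86, apart from 7.42 to 7.48 in the other 3 mice, the gap being 0.855 of the whole range. In the pool channel alone the thymus of mouse 2 stood at 7.78, apart from 7.32 to 7.40, with a gap of 0.845 of the range. The pool is the same RNA on all thymus arrays, so this spread in the pool channel is not between animals. Dixon's rule, which sets the gap against the range, was applied to 12 groups of Ccdc43 values. Chance flags about 1 in 20 groups, and the 2 flags come from the same arrays.

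With loess within each array, the log2 ratio of mutant over pool lay below 0 in all 3 brains and above 0 in all 4 thymuses, with a difference of -0.32. Before normalisation brain mouse 3 lay at 0.01. The difference was not tested, because it chose the gene.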

How the results depend on the processing

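The level difference of Ccdc43 kept its direction under all 16 alternatives, from 1.94 to 2.63. The pool channel alone is among them and reads a single RNA sample per organ, so its call is not counted. Under the others the call held (limma adjusted p from 1.16e-05 to 0.0267). Leave-one-out values of the level difference were 2.09 to 2.63, and it was 2.24 with the mouse as replicate block. The probes called in level moved from 138 to 82 with no background correction, 278 with foreground medians, 329 with flagged spots kept, 77 with detection on all arrays and 24 with the replicate block. They were 8 without mouse 2, 57 without mouse 1, 78 without mouse 3 and 87 without mouse 4. The brain ratio was -0.011 with median centring, -0.048 with print-tip loess and -0.068 with the mutant in Cy3, and turned to 0.085 in the authors' deposited table, where the cause was not tested. With 1 mouse left out it ran from -0.17 to -0.10. The thymus ratio, which kept its sign in all 20 alternatives, was 0.12 with no background correction, 0.27 with background subtracted, 0.31 with offset 0, 0.13 with foreground medians, 0.11 with print-tip loess, 0.30 with median centring, 0.43 in the authors' deposited table, 0.14 with the mutant in Cy3 and 0.25 in Cy5. With 1 mouse left out it ran from 0.17 to 0.21. The brain minus thymus ratio, below 0 in all 22 alternatives, was -0.23 with no background correction, -0.39 with background subtracted, -0.44 with offset 0, -0.25 with foreground medians, -0.16 with print-tip loess, -0.21 with the mutant in Cy3 and -0.43 in Cy5. It was -0.32 with the replicate block, with 0 probes called, and -0.35 to -0.30 with 1 mouse left out. The ratio counts, 0 as reported, became 1 in brain with foreground medians, with the mutant in Cy5 or without mouse 2, 1 in thymus without mouse 2, and 1 for the organ difference with foreground medians or in the authors' deposited table. The rank of Ccdc43 in level ran from 2 to 11, and 3 of the 6 most similar genes were shared between the mouse and array orders. The subtraction of the 100 nearest probes and the comparison of mice 1 to 3 alone were chosen after seeing the data. The thymus signal, 1.51 to 4.82 times background, limits the thymus ratio. The block kept the level call of Ccdc43.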

Other observations

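Ccdc43 was chosen for ratios below 0 in brain and above 0 in thymus. Of the 9 other probes among the 10 with the highest level in brain over thymus, 1 lacked a ratio in thymus mice 1 and 4 and could not be judged. Among those with 7 values, 1 had ratios below 0 in every brain and above 0 in every thymus, against 37 of all 1856 such probes (1.99%). It carries no gene name here and was chosen after its values were seen. Its level was 10.46, 9.19 and 9.68 in the brain of mice 1 to 3 and 7.53, 7.76, 7.66 and 7.76 in the thymus of mice 1 to 4, a difference of 2.10 (limma adjusted p = 0.00546). Its log2 ratio of mutant over pool was -0.14, -0.19 and -0.16 in brain and 0.06, 0.31, 0.27 and 0.54 in thymus. Over the 7 mouse ratios its r with Ccdc43 was 0.827, which ranked 29 of 1855 probes. The probe was picked for signs shared with Ccdc43 over the same 7 values, so a high r follows in part from that choice. Of the other 8 probes, the highest in level, also without a gene name, had ratios of 0.24 ± 0.05 over the 3 brains and -0.23 ± 0.52 over the 4 thymuses (SD).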
